A study of Mus musculus with 3 samples.

Results

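Toll-like receptors are membrane proteins that bind molecules of microbes and start inflammatory gene expression. Lipopolysaccharide, also called endotoxin, is handed by the lipopolysaccharide binding protein to CD14 and by CD14 to the complex of TLR4 with its co-receptor MD-2, which is encoded by *Ly96*. TLR2 pairs with TLR1 or TLR6 to bind bacterial lipoproteins, TLR3 binds double-stranded RNA in endosomes and TLR5 binds flagellin. All of these except TLR3 signal through the adaptor MyD88, and TLR3 and TLR4 use the adaptor TRIF, encoded by *Ticam1*. Biliary epithelial cells (BECs) line the bile ducts, and bile can carry microbial products to them. The 10 genes described here were taken by name: *Tlr1* to *Tlr6*, *Cd14*, *Ly96*, *Myd88* and *Ticam1*. Each had 1 probe on the array among 23473 gene probes. The rule that picked them uses no measured value, but the list was drawn up with earlier results of these data known.

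RNA from cultured intrahepatic BECs of 8-week-old female BALB/c mice was measured on 3 one-colour arrays, 1 for each condition. Serum-depleted BECs were kept in serum-depleted medium and GCDC-treated BECs in medium with 200 µM glycochenodeoxycholic acid, a conjugated bile acid, both for 4 to 7 days by the sample labels, or 7 days where the array results are described, to induce cellular senescence, and control BECs had neither treatment. The culture medium of the cells was DMEM/F-12 with Nu-serum, EGF, insulin, forskolin and antibiotics, and RNA of 2 independent experiments was pooled on each array. There was no second array of any condition here, so that no difference has a replicate check in these data and no p-value is given. The study reports that a second array run on other samples of each condition again found its major upregulated genes, *Ifit3* among them. That run is not part of the 3 arrays used here. Both treatments were set against the same control array, so that an error on that array enters both ratios.

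The level of a probe is its intensity above the blank spots, scaled so that the median of the valid gene probes is 25 on each array. A probe counted as valid if its signal exceeded the mean of the blanks by over 2 of their SDs, which held for 86.1% of gene probes on the serum depletion array, 87.9% on the GCDC array and 89.2% on the control array. All 10 genes were valid on all 3 arrays, and the lowest signal among them was 11.0 SD of the blanks above their mean. A level can be compared between arrays for 1 probe, but not between probes. Values given for single arrays are levels. A gene is said to have risen or fallen if its level changed over 2-fold, and noise ranges beside a ratio are those obtained when both signals are moved by 2 SD of their blanks. That range covers background noise only. Repeated spots of the positive controls had coefficients of variation of 8.93% to 14.4% within an array. Among 971 genes with several valid probes, the log2 ratios of the probes of 1 gene lay a median of 0.69 apart in serum depletion and 0.66 apart in GCDC, and more than 1 apart in 34.5% and 30.8% of these genes. The cells carried the keratins in the list of cholangiocyte markers. In serum depletion, GCDC and control, *Krt7* had levels of 19913, 24861 and 14725 and *Krt19* had levels of 11882, 27738 and 13442. On the same arrays *Krt18* had levels of 33457, 43780 and 30056 and *Krt8* had levels of 21553, 32984 and 22879. All 12 cholangiocyte markers measured were valid on every array. Of these 12, *Aqp1*, a water channel, fell 3.39-fold and 8.99-fold in serum depletion and GCDC, *Krt19* rose 2.06-fold in GCDC, and no other passed 2-fold.

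The genes of the endotoxin receptor moved in opposite directions: *Ly96* rose and *Tlr4* fell, in both treatments. Of the 10 genes, 2 rose and 2 fell in serum depletion (*Tlr1* and *Ly96*, *Tlr3* and *Tlr4*), where 13.5% of all 19809 compared probes rose and 11.1% fell. In GCDC 1 rose and 1 fell (*Ly96* and *Tlr4*), where 13.0% of 20087 probes rose and 8.51% fell. With 10 genes, counts of 1 or 2 lie near these shares. The median log2 ratio of the 10 genes was 0.64 in serum depletion and -0.13 in GCDC, against 0.16 and 0.23 over all compared probes. Between the treated arrays, 2 of the 10 genes (*Tlr1* and *Tlr2*) were more than 2-fold higher in serum depletion than in GCDC and none was more than 2-fold lower, where 2.20% of 19751 probes were higher and 2.92% lower.

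**Figure D1:**
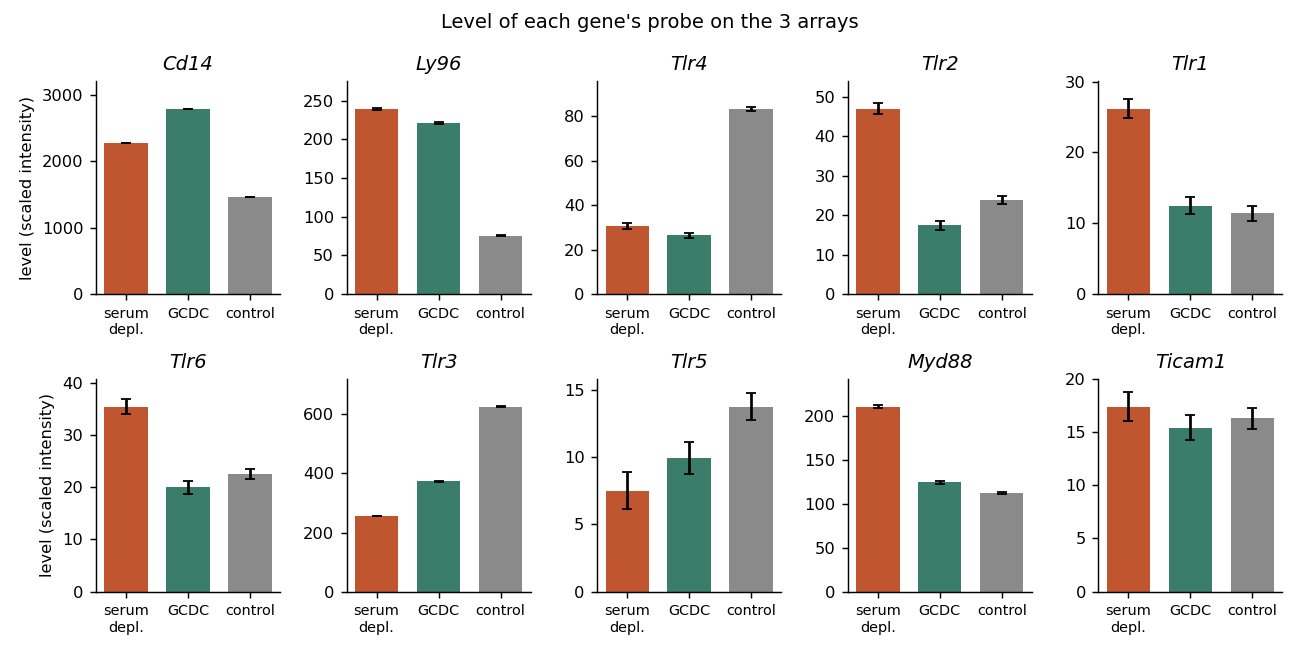
Levels (scaled intensity, each panel with its own linear axis from 0) of the 10 genes on the serum depletion, GCDC and control arrays, with bars of error for 2 SD of the blanks on either side. *Tlr4* stood at 30.8 and 26.4 on the treated arrays and at 83.4 on the control array, and *Ly96* at 239 and 221 on the treated arrays and at 75.4 on the control array.

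*Ly96* encodes the co-receptor that holds the lipid part of endotoxin inside the TLR4 complex. It measured 239 in serum depletion and 221 in GCDC, against 75.4 in control. Both treated arrays lay above the control array and close to each other. In serum depletion the rise was 3.18-fold (noise range 3.12 to 3.24), and in GCDC it was 2.93-fold (2.88 to 2.99). In each comparison 96.2% of the compared probes had a lower ratio. Without any scaling between arrays the log2 ratio in GCDC was 0.90, below 2-fold.

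*Tlr4*, the endotoxin receptor itself, measured 30.8 in serum depletion and 26.4 in GCDC, against 83.4 in control. The treated arrays again lay close to each other, here below the control array. The level was 2.71-fold lower than control in serum depletion and 3.16-fold lower in GCDC, log2 ratios of -1.44 and -1.66. Only 6.36% of compared probes had a lower ratio in serum depletion and 3.46% in GCDC. *Tlr4* fell in both treatments under all 6 scalings tried between arrays, while normexp background correction with an offset of 50 together with quantile normalization left log2 ratios of -0.78 and -0.91.

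*Cd14*, a membrane-anchored protein that passes endotoxin to the receptor complex, measured 2278 in serum depletion and 2792 in GCDC, against 1469 in control. The ratios of 1.55-fold and 1.90-fold did not reach 2-fold. The ratio in serum depletion depended on the scaling, with log2 values of -0.21 to 0.79 over 6 scalings and 0.63 at equal medians. In GCDC it was above 0 in all 6, at 0.09 to 0.997.

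**Figure D2:**
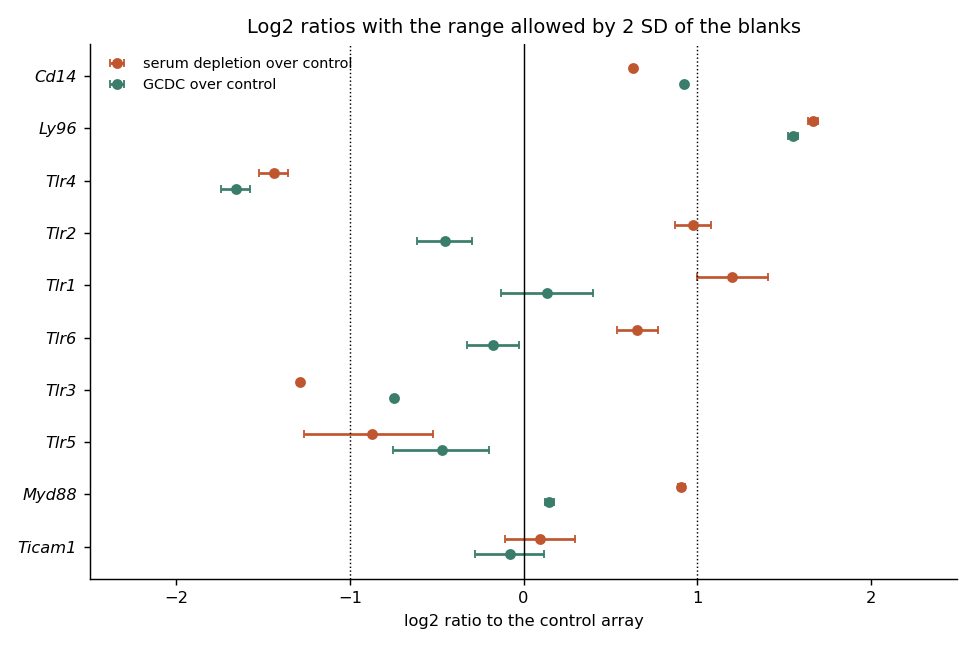
Log2 ratios of the 10 genes to the control array in serum depletion and in GCDC, with horizontal bars for the range allowed by 2 SD of the blanks and dotted lines at 2-fold. *Ly96* (1.67 and 1.55) and *Tlr4* (-1.44 and -1.66) lay outside the lines in both treatments, and *Tlr1*, *Tlr2*, *Tlr6* and *Myd88* lay further to the right in serum depletion than in GCDC.

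Of the receptors for lipoproteins, *Tlr2* and *Tlr1* differed by more than 2-fold between the 2 treatments and *Tlr6* did not. *Tlr2*, the shared partner of both receptor pairs, measured 46.9 in serum depletion and 17.4 in GCDC, against 23.8 in control. Serum depletion was thus the highest array and GCDC the lowest, at 1.97-fold of control (1.83 to 2.11) and 0.730-fold (0.654 to 0.814). *Tlr1*, which pairs with TLR2 on triacylated lipoproteins, measured 26.2 in serum depletion and 12.5 in GCDC, against 11.4 in control. It rose 2.30-fold in serum depletion (2.003 to 2.652) and stood at 1.10-fold in GCDC, where the noise range of 0.914 to 1.32 includes no difference. *Tlr6*, the partner for diacylated lipoproteins, measured 35.4 in serum depletion and 19.9 in GCDC, against 22.5 in control. It stood at 1.58-fold of control in serum depletion and at 0.887-fold in GCDC, neither past 2-fold.

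*Myd88*, the adaptor below these receptors, measured 211 in serum depletion and 124 in GCDC, against 112 in control. The GCDC and control arrays lay close together, and the ratios to control were 1.88-fold for serum depletion and 1.11-fold for GCDC. Set directly against GCDC, serum depletion had 2.70 times the level of *Tlr2* (noise range 2.45 to 2.98), 2.09 times that of *Tlr1* (1.81 to 2.43), 1.78 times that of *Tlr6* (1.61 to 1.96) and 1.70 times that of *Myd88* (1.67 to 1.72). These comparisons do not use the control array. The ratio was lower than that of *Tlr2* in 99.2% of compared probes, than that of *Tlr1* in 98.1%, than that of *Tlr6* in 96.5% and than that of *Myd88* in 95.8%. Over 6 scalings the log2 ratio of serum depletion to GCDC was 1.43 to 1.63 for *Tlr2* and 1.07 to 1.27 for *Tlr1*, and with normexp and quantile normalization together it was 0.64 and 0.37. Against control, *Tlr1* rose in serum depletion in 5 of the 6 scalings and *Tlr2* in 3 of the 6.

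**Figure D3:**
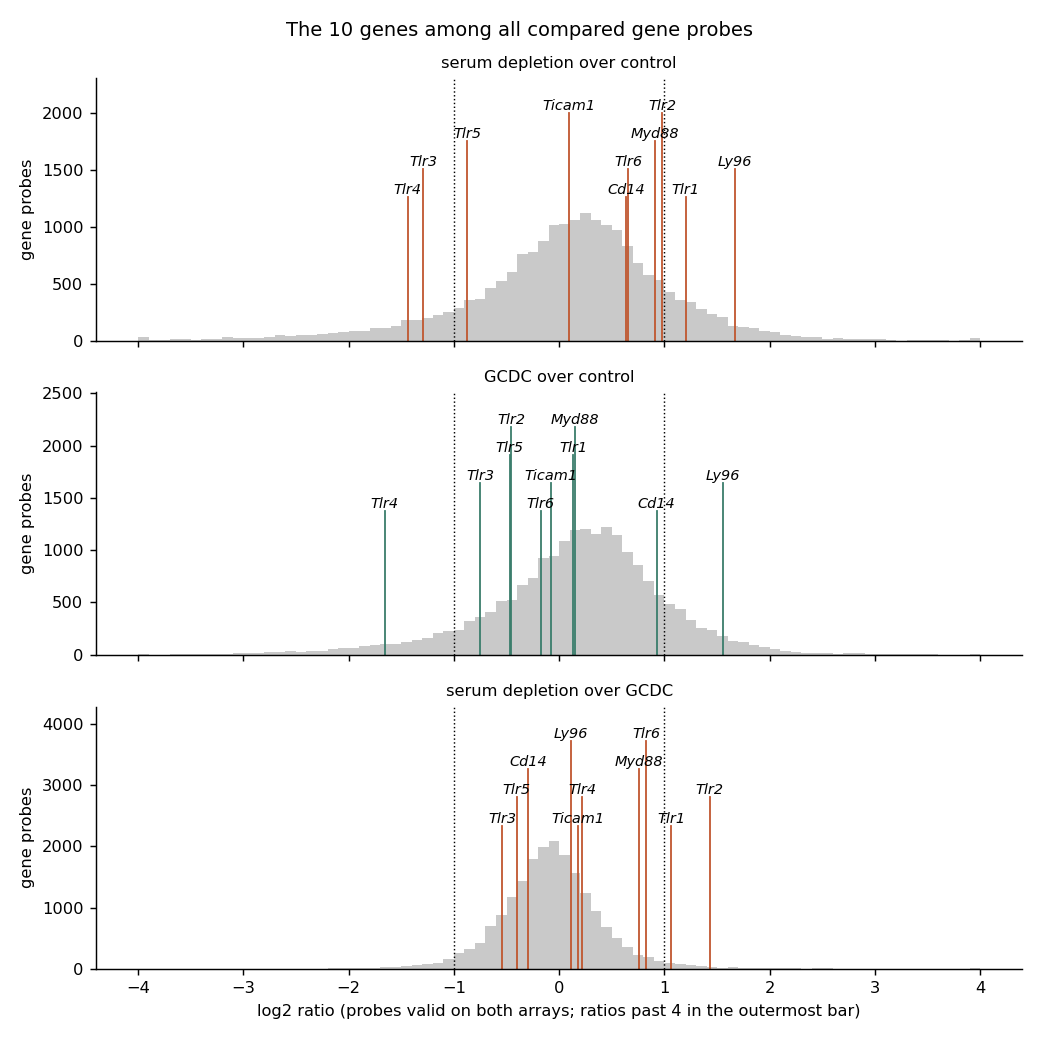
Distribution of the log2 ratios of all compared gene probes (grey, number of probes in bins of 0.1 log2 units) with the 10 genes marked by lines, for serum depletion over control, GCDC over control and serum depletion over GCDC, and dotted lines at 2-fold. In the lowest panel *Tlr2* (1.43), *Tlr1* (1.07), *Tlr6* (0.83) and *Myd88* (0.76) lay in the right tail.

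The 250 bases before a transcription start were read from RefSeq (build GRCm38.p6) for 7 of the 10 genes, and none was used for *Tlr4*, *Ly96* or *Cd14*. Those of *Myd88* and *Ticam1* lay wholly outside the span of the gene. They are shown because these are the 2 adaptors among the 10 genes, with levels in serum depletion 1.70 and 1.13 times those in GCDC. The other windows precede a start that lies within the listed gene span, so that 42 of 250 bases of *Tlr1*, 216 of *Tlr2*, 36 of *Tlr5* and all of *Tlr3* and *Tlr6* are inside the gene, where longer transcripts may run, and these are not printed whole. The sequences are written 5′ to 3′ on the gene's strand and end at the base before the start. Capitals mark matches on either strand to the letters of 6 short motifs. These were the interferon-stimulated response element or ISRE (GAAA, any 2 bases, GAAA), the NF-kB motif (GGG, any 2 bases, TTTCC), the AP-1 motif (TGA, any base, TCA), the core of ETS sites (GAGGAA), the GC box (GGGCGG) and the TATA box (TATAAA). The window of *Myd88* lies at chr9:119340019-119340268 and that of *Ticam1* at chr17:56276768-56277017, both on the minus strand.
Myd88: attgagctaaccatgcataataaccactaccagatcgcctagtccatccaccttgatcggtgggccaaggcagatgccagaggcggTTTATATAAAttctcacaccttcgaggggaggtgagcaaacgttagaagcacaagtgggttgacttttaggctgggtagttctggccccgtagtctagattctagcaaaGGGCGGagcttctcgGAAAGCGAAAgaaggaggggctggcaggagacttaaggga
Ticam1: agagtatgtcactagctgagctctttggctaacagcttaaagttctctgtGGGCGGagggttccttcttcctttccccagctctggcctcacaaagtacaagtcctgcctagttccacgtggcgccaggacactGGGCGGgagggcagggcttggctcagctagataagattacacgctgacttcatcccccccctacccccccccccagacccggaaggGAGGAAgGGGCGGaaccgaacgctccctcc

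The window of *Myd88* held ISRE letters 40 bases before the start, letters that 2.98% of 32536 promoters of this length hold, and that of *Ticam1* did not. The *Myd88* window also held a GC box 55 bases before the start and a pair of TATAAA matches, on opposite strands and overlapping, 164 and 160 bases before it, letters found in 12.3% of promoters. The *Ticam1* window held GAGGAA, found in 23.4% of promoters, and a GC box at 3 places, where 33.0% of promoters have at least 1. Among the receptors, the window of *Tlr6* at chr5:64959167-64959416 held a pair of overlapping ISRE matches, TTTCTCTTTCACTTTC, from 116 bases before that start. The window of *Tlr3* at chr8:45410381-45410630 held the only NF-kB match among the 7 genes, GGGAGTTTCC, 211 bases before that start, where 1.40% of promoters have these letters. The window of *Tlr1* held GAGGAA alone and those of *Tlr2* and *Tlr5* held GC boxes alone. *Tlr1* and *Tlr6* have a second start in the table, before which the window of *Tlr1* held no match and that of *Tlr6* held TATAAA letters alone. AP-1 letters, found in 6.73% of promoters, were in none of the windows of the 7 genes. A match is a run of letters and was not tested as a binding site.

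*Tlr3*, the endosomal receptor for double-stranded RNA, measured 256 in serum depletion and 373 in GCDC, against 626 in control. Both treated arrays lay below the control array, serum depletion lower than GCDC. The level was 2.45-fold lower than control in serum depletion and 1.68-fold lower in GCDC, log2 ratios of -1.29 and -0.75. It fell in serum depletion in all 6 scalings, and in GCDC in 3 of them, with a log2 ratio down to -1.40 without scaling. *Ticam1*, its adaptor, measured 17.4 in serum depletion and 15.4 in GCDC, against 16.3 in control, and the noise range of both ratios included no difference. *Tlr5*, the receptor for flagellin, measured 7.51 in serum depletion and 9.94 in GCDC, against 13.8 in control. These are 1.83-fold and 1.38-fold lower than control, within 2-fold, and the treated arrays could not be told apart beyond the noise of the blanks.

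**Figure D4:**
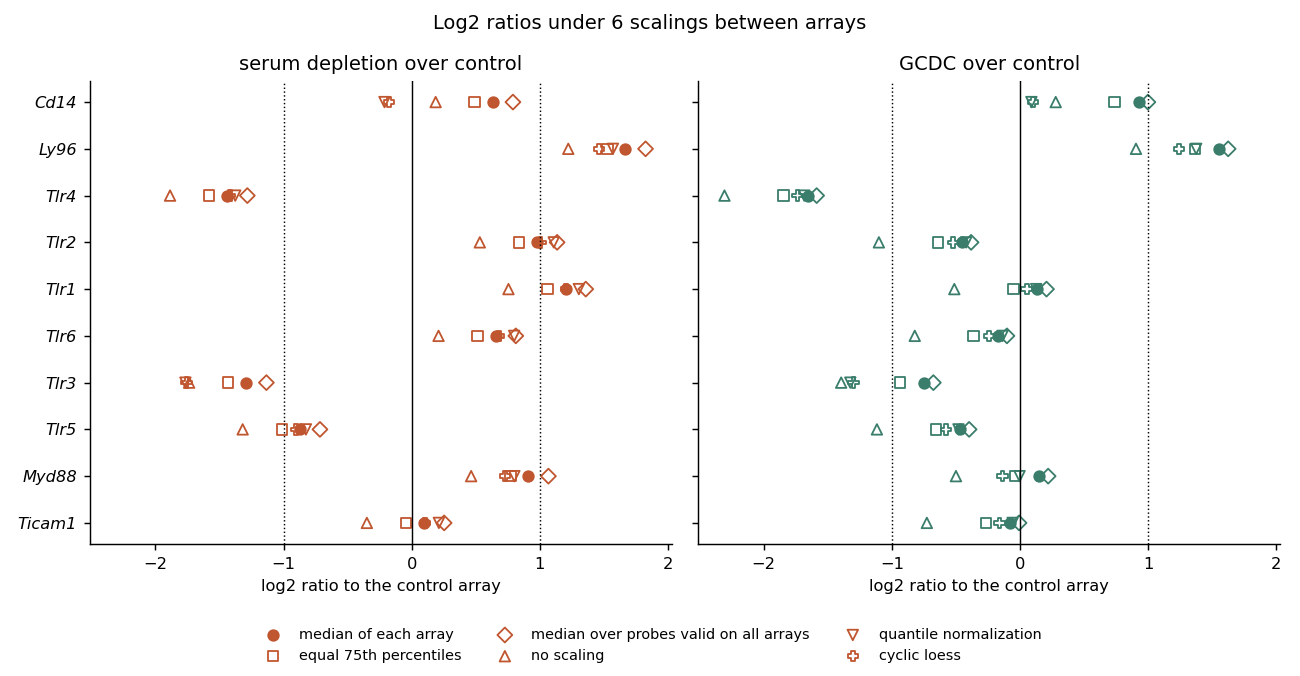
Log2 ratios of the 10 genes to control in serum depletion (left) and in GCDC (right) under 6 scalings between arrays, with filled circles for equal medians and dotted lines at 2-fold. *Tlr4* stays below -1 in both panels, *Ly96* stays above 1 except without scaling in GCDC (0.90), and *Cd14* lies on both sides of 0 in serum depletion.

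Among 4106 genes with a control level within 2-fold of that of *Tlr4*, those closest to it in both log2 ratios were *Senp1*, a SUMO protease (-1.36 in serum depletion and -1.63 in GCDC), *Polr3b*, a subunit of RNA polymerase III (-1.34 and -1.68), and *Acvr2a*, an activin receptor (-1.47 and -1.76). For *Ly96*, among 4151 genes, they were *Gadd45gip1*, a mitochondrial ribosome protein (1.67 and 1.61), *Agmat* (1.60 and 1.58) and *Dmac1*, an assembly factor of respiratory complex I (1.61 and 1.47). Closeness is the Euclidean distance over the 2 log2 ratios, at most 0.107 for these 6 genes.

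The other genes of endotoxin recognition and signalling were taken from lists by function. Over all compared probes 13.5% rose and 11.1% fell in serum depletion, and 13.0% and 8.51% in GCDC. Counts of all lists below, marker lists included, are to be read against these shares, and none was tested. Among 8 genes of endotoxin delivery, clearance and cytosolic sensing, 2 rose and 1 fell in serum depletion and 3 rose and none fell in GCDC. *Lbp*, the serum protein that carries endotoxin to CD14, measured 201 in serum depletion and 41.2 in GCDC, against 17.6 in control. It rose 11.4-fold and 2.34-fold, and did so in 6 of 6 scalings in serum depletion and in 5 of 6 in GCDC. *Casp4*, the mouse gene of the inflammatory caspase that binds endotoxin in the cytosol, measured 16.2 in serum depletion and 2.72 in GCDC, against 2.31 in control, a 7.01-fold rise in serum depletion from a control level near the limit of 1.002 for valid probes. *Scarb1*, a scavenger receptor that takes up lipoproteins and endotoxin, fell in serum depletion (log2 ratio -1.36) and had -0.99 in GCDC. *Hmgb1*, a nuclear protein that can be released and bind TLR4, rose in GCDC (1.23, past 2-fold in 3 of 6 scalings) and had 0.61 in serum depletion. *Bpi*, which binds and neutralizes endotoxin, rose in GCDC (1.03, past 2-fold in 2 of 6 scalings) and had -0.12 in serum depletion.

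*Lbp* is made mainly by hepatocytes in the liver, and 2 of 9 hepatocyte markers rose in serum depletion and none in GCDC. *Ttr*, a carrier of thyroid hormone and the highest of these markers, measured 288 in serum depletion and 50.4 in GCDC, against 36.9 in control. *Serpina1a*, the other marker that rose there, measured 17.1 in serum depletion and 11.7 in GCDC, against 5.92 in control. These are 2.88-fold and 1.97-fold of control. *Fgb*, a chain of fibrinogen, had log2 ratios of 0.91 and 0.59. The summed level of these 9 markers, most of it *Ttr* in serum depletion, was 448 in serum depletion and 181 in GCDC, against 142 in control. Such a sum weighs each probe by its own intensity and gives no share of cells. Their median log2 ratio was 0.07 and -0.09, against 0.16 and 0.23 over all probes. *Alb*, albumin, stood at 2.34, 3.44 and 3.66 on the same arrays, near the limit for valid probes. The part of these markers in the values of *Lbp* was not tested.

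Of the other receptors of the family and their relatives, *Tlr7*, *Tlr8* and *Ly86* were not valid on any array, and *Tlr9* is not analysed here. Of the 4 others that were valid, 1 rose in serum depletion and 2 in GCDC. *Tlr11*, a mouse receptor for profilin of protozoa, measured 2.99 in serum depletion and 3.64 in GCDC, against 1.35 in control, log2 ratios of 1.14 and 1.43 from a control value close to the limit for valid probes. *Cd180*, a relative of TLR4 known from B cells, had log2 ratios of 0.43 and 1.27.

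Among 8 adaptors and folding proteins, 1 rose and 1 fell in serum depletion and none passed 2-fold in GCDC. *Cnpy3*, a chaperone that helps Toll-like receptors to reach their membranes, fell in serum depletion (log2 ratio -1.59) and had -0.97 in GCDC. Its relative *Cnpy4* rose in serum depletion (1.27) and had 0.91 in GCDC. The adaptors *Tirap* and *Ticam2*, which bring MyD88 and TRIF to TLR4, had log2 ratios of 0.35 and 0.21, and of -0.22 and -0.26. *Unc93b1*, the escort of endosomal receptors, had 0.21 and 0.25, and *Hsp90b1*, their chaperone in the endoplasmic reticulum, had 0.39 and 0.31.

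**Figure D5:**
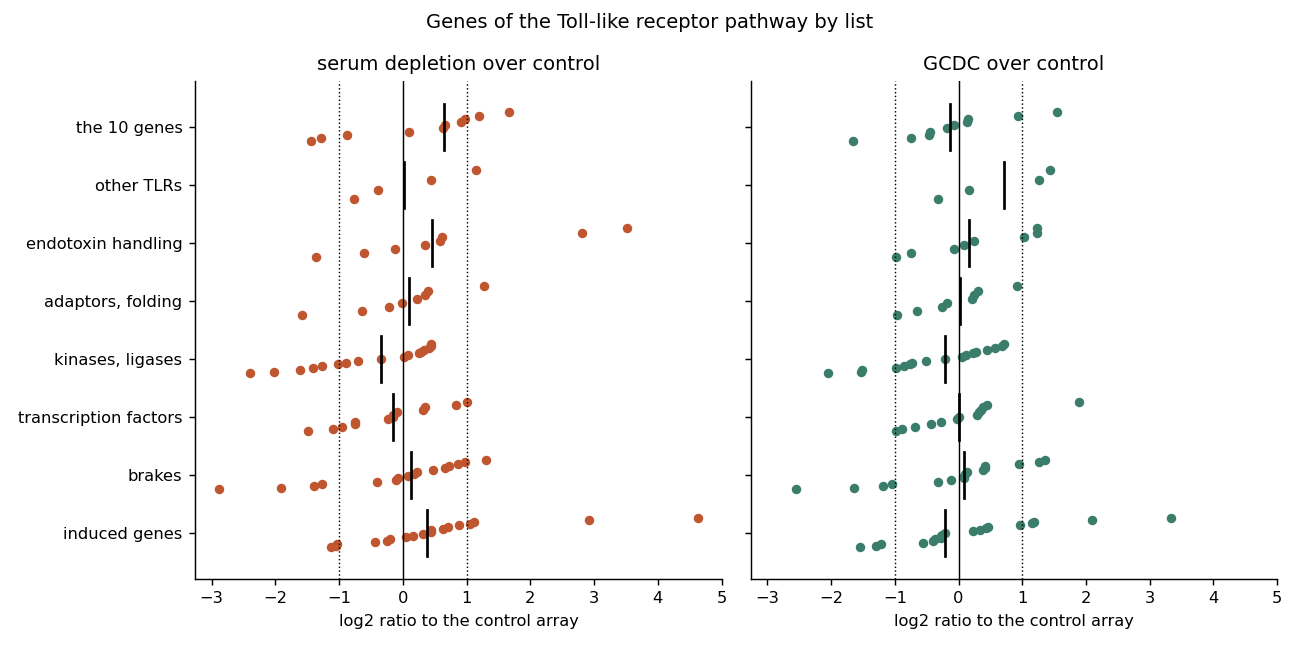
Log2 ratios to control in serum depletion (left) and in GCDC (right) of the 10 genes and of 7 lists of pathway genes, with 1 point for each gene valid on both arrays, a black bar for the median of each list and dotted lines at 2-fold. The list of kinases and ligases has points below -1 and none above 1 in either panel.

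Of 17 kinases and ligases between the adaptors and NF-kB, 6 fell in serum depletion and 3 in GCDC, where 11.1% and 8.51% of all probes fell, and none rose. The numbers that fell depended on the processing, at 8 and 8 without scaling, and 1 and 0 with normexp and quantile normalization together. Their median log2 ratios were -0.34 and -0.22, against 0.16 and 0.23 over all probes. *Map3k7*, the kinase TAK1, measured 19.4 in serum depletion and 27.1 in GCDC, against 78.5 in control, and *Ikbkg*, the regulatory subunit of the IkB kinase, had levels of 20.8 and 15.5, against 63.8 in control. *Irak2*, a kinase of the MyD88 complex, had 3.57 and 6.60, against 18.8 in control. These 3 genes fell in both treatments under all 6 scalings, but the mean over both probes of *Map3k7* had a log2 ratio of -0.99 in GCDC. *Tab1*, a partner of TAK1, fell in serum depletion (log2 ratio -1.41) and had -0.98 in GCDC, and *Ikbke*, a kinase of interferon regulatory factors, fell in serum depletion (-1.27) and had -0.86 in GCDC. *Irak1* had log2 ratios of 0.44 and 0.68, and *Traf6*, the ligase below it, -0.71 and -0.50. *Irak4* and *Traf3* are not analysed here.

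Among 13 transcription factors, 2 fell in serum depletion, where 11.1% of all probes fell, and 1 rose in GCDC, where 13.0% rose. *Cebpb*, a factor of acute inflammation, measured 238 in serum depletion and 440 in GCDC, against 119 in control, and rose 3.69-fold in GCDC. *Fos* measured 34.6 in serum depletion and 95.4 in GCDC, against 96.8 in control, and fell in serum depletion. *Nfkb2* fell in serum depletion (log2 ratio -1.09) and had -0.98 in GCDC. *Rela*, the NF-kB subunit that most Toll-like receptor signals use, had -0.76 and -0.89, and *Irf3*, the factor below TRIF, had -0.24 and 0.28. *Nfkb1* is not analysed here.

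Of 16 genes that restrain the receptors, 1 rose and 4 fell in serum depletion, where 13.5% of all probes rose and 11.1% fell. In GCDC 2 rose and 4 fell, where 13.0% and 8.51% did. *Nfkbia*, the inhibitor that holds NF-kB in the cytosol, measured 656 in serum depletion and 675 in GCDC, against 265 in control, and rose in both treatments, though in only 3 of 6 scalings in each. *Zfp36*, which destabilizes cytokine mRNAs, had levels of 6.34 and 8.04, against 46.9 in control. *Tnfaip3*, the ubiquitin-editing enzyme A20, had levels of 96.0 and 111, against 252 in control, and fell in both treatments. *Trafd1*, which limits Toll-like receptor signals, and the deubiquitinase *Usp4* also fell in both treatments, with log2 ratios of -1.92 and -1.64, and of -1.27 and -1.04.

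Of 18 genes that endotoxin induces in many cells, 4 rose and 3 fell in serum depletion, where 13.5% of all probes rose and 11.1% fell. In GCDC 4 rose and 3 fell, of 19, where 13.0% and 8.51% did. *Ccl2*, a monocyte chemokine that the study singled out on these arrays, measured 369 in serum depletion and 151 in GCDC, against 14.9 in control. Because of that choice its rise is not independent evidence. *Ccl20*, a chemokine of epithelia, had levels of 573 and 323, against 75.5 in control, and rose 7.58-fold and 4.27-fold. The study also names *Ccl20* among the upregulated inflammatory genes, so that its rise is not independent evidence either. In the other direction, *Tnf* had levels of 17.7 and 16.6, against 38.5 in control, and *Ptgs2*, cyclooxygenase-2, had levels of 166 and 116, against 340 in control, and both fell in both treatments. *Il6* fell 2.47-fold in GCDC, and in serum depletion, where it was not valid, it was at least 2.80-fold lower than its control level of 3.83. That bound is not counted among the 18. The level of *Il6* in GCDC was 1.55, near the limit of 1.18 for valid probes on that array. With normexp and quantile normalization together its log2 ratio in GCDC was -0.08.

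Several of the 10 genes are also expressed by macrophages. Of 17 macrophage and Kupffer cell markers 12 were valid on all 3 arrays, and none rose or fell in either treatment. Their summed level was 235 in serum depletion and 234 in GCDC, against 178 in control. This sum too weighs each probe by its own intensity and gives no share of cells. *Aif1*, the highest of them by the mean of the arrays, had levels of 91.3 and 62.9, against 47.0 in control, and *Cd68*, a lysosomal protein of macrophages, had 43.8 and 63.5, against 42.5 in control. *Adgre1*, which encodes F4/80, was not valid on any array, and *Ptprc*, the common leukocyte antigen, stood at 1.83 in serum depletion and 2.49 in GCDC, against 2.62 in control. Of the remaining marker lists, 2 of 8 lymphocyte and dendritic cell genes, 2 of 10 mesenchymal genes and 2 of 6 endothelial genes rose in serum depletion. Over all probes 13.5% rose there. In GCDC 1 of 6 lymphocyte and dendritic cell genes and 2 of 7 endothelial genes rose, where 13.0% of all probes did. In these lists 1 of 9 mesenchymal genes fell in GCDC, and no other gene fell in either treatment. *Ms4a1*, a B cell gene, was among those that rose in both treatments (4.35-fold and 3.26-fold). Its levels were 7.02 and 5.26, against 1.61 in control, near the limit for valid probes. *Cd79a*, part of the B cell receptor, rose 2.70-fold in serum depletion, with a level of 15.9 against 5.87 in control. The genes with the highest levels in these lists, whether changed or not, were *Siglech* and *Cd4*, *Pdgfrb* and *Col1a2*, and *Kdr* and *Lyve1*. *Kdr*, an endothelial receptor, rose in both, 2.40-fold and 2.49-fold. A smaller share of cells and less RNA per cell cannot be told apart in such bulk samples.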

How the data were processed

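The authors scanned 3 one-colour 3D-Gene arrays (Cy5) and deposited the intensity of every spot, together with a table of processed intensity. The samples were grouped by their treatment labels. From the scanner intensity, the mean of those blanks that lay within the 5th to 95th percentile was taken off, probes more than 2 SD of the blanks above that mean were valid, as in the methods, and each array was scaled to a median of 25 over valid gene probes. The valid probes matched the deposited table at every gene probe. The percentiles and the median were found by matching that table. On the GCDC array 3 gene spots marked by the scanner were left out, none of them of the 10 genes. The mean of the blanks was 58.7 in serum depletion, 52.5 in GCDC and 55.7 in control, with SDs of 0.815, 0.611 and 0.813.

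A log2 ratio was formed where both levels were valid. Where 1 was not, a bound was given against the higher of the lowest valid level of that array and the probe's own value. Counts of genes that rose or fell took only ratios, so that a gene with a bound alone was left out even past 2-fold. Where a gene had several probes, that with the highest mean level stood for it. *Map3k7* was the only pathway gene named here to which this applied. The genes and the 14 lists, 193 genes in all with 179 measured, were chosen with earlier results of these data known. Named in the text are the 10 genes, their direct partners and the highest 2 genes of each marker list. From each other list, up to 5 genes past 2-fold in either treatment are named, by the largest absolute mean of both log2 ratios. *Il6*, with a ratio in GCDC only, was ranked by that ratio. The 3 genes nearest in pattern are named for those of the 10 genes that passed 2-fold the same way in both treatments. *Tlr7*, *Tlr8*, *Tlr9*, *Ly86*, *Alb*, *Serpina1a*, *Aqp1*, *Krt7*, *Krt19*, *Ms4a1*, *Cd79a*, *Adgre1* and *Ptprc* were named after their values were seen. Gene names came from the platform annotation, updated through RefSeq. The steps were tested on simulated data.

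The alternatives were no filter on validity, a limit of 5 SD, no scaling, 75th percentiles, a median over the probes valid on every array, quantile normalization, cyclic loess, normexp with an offset of 50 together with quantile normalization, the deposited table, signals moved by 2 SD of the blanks, the mean over probes of a gene, and thresholds of 1.5-fold and 4-fold. Cyclic loess and normexp were run with limma 3.58.1 in R 4.3.3, and all else in Python 3.11.15 (numpy 2.4.6, pandas 2.3.3, matplotlib 3.10.9).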

Additional observations from a re-analysis of the deposited data

How the results depend on the processing

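No value of the 10 genes or of the other named pathway genes past 2-fold changed direction under any alternative that could show it. Ratios with signals moved by 2 SD of the blanks were stopped at 0 and could not change sign. Those of *Tlr11* in serum depletion and of *Clec4e* in GCDC reached 0 there. The counts of the 10 genes past 2-fold depended on the scaling and the threshold. In serum depletion 2 rose at equal medians, 4 with a median over the probes valid on every array (*Tlr1*, *Tlr2*, *Ly96* and *Myd88*), 1 without scaling, 1 with normexp and quantile normalization together, 6 at 1.5-fold and 0 at 4-fold. There 2 fell at equal medians, 1 with those 2 steps and 0 at 4-fold. In GCDC 1 rose at equal medians, 0 without scaling, 2 at 1.5-fold and 0 at 4-fold. There 1 fell at equal medians, 4 without scaling (*Tlr2*, *Tlr3*, *Tlr4* and *Tlr5*), 2 with quantile normalization, 2 with cyclic loess, 2 at 1.5-fold and 0 at 4-fold. With normexp and quantile normalization together the gene that fell was *Tlr3* in both treatments and not *Tlr4*. Between the treated arrays 2 were higher in serum depletion than in GCDC, against 0 with normexp and quantile normalization together, 1 with signals moved by 2 SD of the blanks, 4 at 1.5-fold and 0 at 4-fold. Scaling moves every probe: at equal medians the log2 ratios of all compared probes had medians of 0.16 (serum depletion) and 0.23 (GCDC), and without scaling of -0.28 and -0.41. With normexp and quantile normalization together, 18 of the 24 other named genes past 2-fold in serum depletion and 16 of 22 in GCDC were within 2-fold. Of 416 counts of pathway lists under the alternatives, 119 moved by more than 1.5 times. No paired analysis was possible because each condition had 1 array. Precision is limited by the number of arrays.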

Other observations

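Receptors for microbial molecules outside the Toll-like family were measured too. Of 14 such genes 1 rose and 1 fell in serum depletion, and 1 rose and 2 fell in GCDC. Over all compared probes 13.5% rose and 11.1% fell in serum depletion, and 13.0% and 8.51% in GCDC. *Nlrc4*, the adaptor of the inflammasome that senses flagellin with its NAIP partners, measured 5.06 in serum depletion and 7.74 in GCDC, against 46.1 in control. Its level was 9.12-fold and 5.96-fold lower than control, and it fell in both treatments under all 6 scalings, though with normexp and quantile normalization together the log2 ratios were -0.90 and -0.83. *Clec7a*, the receptor for fungal beta-glucan known as dectin-1, measured 11.7 in serum depletion and 7.54 in GCDC, against 3.59 in control. It rose in serum depletion in all 6 scalings and in GCDC in 2 of 6. With normexp and quantile normalization together its log2 ratios were 0.25 and 0.11. *Clec4e*, a receptor for mycobacterial glycolipid, fell in GCDC (log2 ratio -1.14) and had -0.77 in serum depletion, from a control level of 3.92.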
